A study of Mus musculus with 23 samples.

Results

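Open chromatin was mapped in 3T3-L1 cells on day -1, which is 48 hours after transfection, in 4 libraries that received siRNA against Kdm5c and 4 that received a non-targeting siRNA, called scramble here. The regions described are all 31966 nuclear peaks of the day -1 count table, that is, every row outside the mitochondrial genome, out of 153033 nuclear peaks in the separate sets of 3 days. The 8 libraries are part of 23. 3T3-L1 is an established mouse preadipocyte line that can be turned into fat cells in culture. Both arms were reverse-transfected at 50 nM with a lipid reagent on day -3, while the cells were sub-confluent. The labels name no genetic change, and the arms differ only in the siRNA. The labels do not say whether the 4 replicates of an arm came from separate cultures, so each p-value reflects only how far these libraries spread, and that spread may be technical.

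ATAC-seq uses a transposase that cuts and tags DNA where it is not wrapped tightly in nucleosomes, so the number of reads in a peak reflects how accessible that stretch is. Promoters and enhancers are the best known accessible regions. Kdm5c is an X-linked demethylase that removes methyl groups from lysine 4 of histone H3, a mark of active promoters and enhancers, and it is one of 4 mammalian KDM5 enzymes. The design asks which regions gain or lose accessibility when Kdm5c is targeted, here at the middle of 3 sampled times.

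Peaks to which the authors gave a gene name are called promoter-class peaks, and the remaining peaks are called other peaks. Levels are mean normalised counts per kb of peak, and fold changes are Kdm5c siRNA over scramble on the log2 scale, relative to the bulk of nuclear peaks. The deposited counts summed to 9202281 to 14913397 per library, of which 87.6% to 93.2% were mitochondrial. Nuclear counts, on which everything below rests, were 781309 to 1446979 per library, and a nuclear peak held a median of 17.5 counts per library.

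The sequences of a few gene starts introduce what an open or a closed promoter of these cells contained. Each is the 250 bases before the start given by RefSeq for GRCm38.p6, read 5′ to 3′ in the direction of the gene. Capitals mark exact matches on either strand to 4 short motifs: the GC box GGGCGG, bound by Sp factors, the CCAAT box CCAAT, bound by NF-Y, the AP-1 letters TGANTCA, and the TATA box TATAAA. A match is a description of letters, not of binding. The first set was chosen because the comparison of arms turns on it: the targeted gene, and the covered starts in the RefSeq table with the smallest p in each direction.
Kdm5c, chrX:152232977-152233226, plus strand: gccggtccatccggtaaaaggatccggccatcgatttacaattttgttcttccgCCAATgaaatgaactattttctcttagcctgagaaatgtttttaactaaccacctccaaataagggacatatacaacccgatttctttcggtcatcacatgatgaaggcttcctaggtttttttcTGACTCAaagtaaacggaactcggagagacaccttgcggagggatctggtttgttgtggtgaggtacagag
Stil, chr4:114999868-115000117, plus strand: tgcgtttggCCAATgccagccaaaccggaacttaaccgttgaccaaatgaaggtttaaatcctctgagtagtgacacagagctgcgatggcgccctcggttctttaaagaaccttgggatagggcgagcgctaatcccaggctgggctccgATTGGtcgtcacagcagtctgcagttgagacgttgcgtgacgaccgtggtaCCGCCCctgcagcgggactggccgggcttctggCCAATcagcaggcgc
Rsph3a, chr17:7945364-7945613, plus strand: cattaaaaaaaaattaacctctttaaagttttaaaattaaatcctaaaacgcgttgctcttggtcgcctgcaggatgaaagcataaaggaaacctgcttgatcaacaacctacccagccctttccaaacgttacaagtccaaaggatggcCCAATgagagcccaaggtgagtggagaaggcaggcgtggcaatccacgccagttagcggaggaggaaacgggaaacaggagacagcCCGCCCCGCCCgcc

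The second set shows high accessibility at CpG-rich starts. Mdm2 encodes the ubiquitin ligase that restrains p53, Sp4 encodes one of the Sp factors, and Osbp encodes an oxysterol-binding lipid transfer protein.
Mdm2, chr10:117710759-117711008, minus strand: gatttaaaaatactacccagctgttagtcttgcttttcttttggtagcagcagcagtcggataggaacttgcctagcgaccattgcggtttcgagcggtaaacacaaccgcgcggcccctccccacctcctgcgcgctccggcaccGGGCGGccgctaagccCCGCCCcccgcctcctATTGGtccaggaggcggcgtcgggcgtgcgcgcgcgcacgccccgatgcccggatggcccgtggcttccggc
Sp4, chr12:118301441-118301690, minus strand: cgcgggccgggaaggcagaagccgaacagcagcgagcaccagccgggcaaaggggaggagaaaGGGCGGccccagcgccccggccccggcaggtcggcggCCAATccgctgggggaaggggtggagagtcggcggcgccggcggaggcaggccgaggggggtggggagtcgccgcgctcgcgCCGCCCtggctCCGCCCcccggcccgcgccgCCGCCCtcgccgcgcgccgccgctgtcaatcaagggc
Osbp, chr19:11965594-11965843, plus strand: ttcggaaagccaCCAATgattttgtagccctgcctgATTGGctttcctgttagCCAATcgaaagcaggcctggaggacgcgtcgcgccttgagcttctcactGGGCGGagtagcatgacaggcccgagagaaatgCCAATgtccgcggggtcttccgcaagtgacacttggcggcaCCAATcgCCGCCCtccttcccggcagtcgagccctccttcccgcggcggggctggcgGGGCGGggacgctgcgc

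The last set contrasts CpG-poor starts that were open in these cells with starts that were not. Emp1 encodes an epithelial membrane protein and S100a4 a calcium-binding protein of fibroblasts, and a peak covered both starts. Adipoq encodes adiponectin, a hormone of mature fat cells, and Dazl a germ cell RNA-binding protein, and no peak covered either start.
Emp1, chr6:135362681-135362930, plus strand: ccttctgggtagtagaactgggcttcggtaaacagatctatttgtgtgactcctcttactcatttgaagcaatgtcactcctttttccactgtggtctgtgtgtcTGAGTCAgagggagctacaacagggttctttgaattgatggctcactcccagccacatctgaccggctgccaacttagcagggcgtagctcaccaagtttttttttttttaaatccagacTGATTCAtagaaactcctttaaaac
S100a4, chr3:90603520-90603769, plus strand: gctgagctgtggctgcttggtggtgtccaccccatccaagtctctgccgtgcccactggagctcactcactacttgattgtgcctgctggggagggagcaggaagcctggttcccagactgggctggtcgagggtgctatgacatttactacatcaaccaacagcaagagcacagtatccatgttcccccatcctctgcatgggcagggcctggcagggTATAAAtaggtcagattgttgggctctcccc
Adipoq, chr16:23146286-23146535, plus strand: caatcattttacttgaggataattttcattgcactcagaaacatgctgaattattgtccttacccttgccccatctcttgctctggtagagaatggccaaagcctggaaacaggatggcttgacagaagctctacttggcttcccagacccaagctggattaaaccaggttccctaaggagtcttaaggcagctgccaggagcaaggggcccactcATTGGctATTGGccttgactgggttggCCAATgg
Dazl, chr17:50293621-50293870, minus strand: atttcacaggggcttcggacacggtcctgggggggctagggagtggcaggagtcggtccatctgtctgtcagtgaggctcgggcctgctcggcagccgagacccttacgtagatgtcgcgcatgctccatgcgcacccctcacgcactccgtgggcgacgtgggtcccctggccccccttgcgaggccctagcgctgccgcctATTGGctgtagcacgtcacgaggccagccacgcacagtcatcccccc

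The accessible genome of these preadipocytes on day -1 was made of 9688 promoter-class peaks at 8994 named genes and 22278 other peaks. Promoter-class peaks were 30.3% of nuclear peaks but held 45.5% ± 0.769 of nuclear counts (SD, n = 8 libraries). They were wider, with a median of 625 bases against 267 bases for other peaks, and had a higher level, with a median of 64.1 counts per kb against 51.3. Peaks of at least 1 kb made up 15.3% of the promoter class and 2.21% of other peaks. The share of promoter-class peaks rose with width, from 10.7% of the narrowest class, under 200 bases, to 76.2% of the class that begins at 1000 bases.

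**Figure D1:**
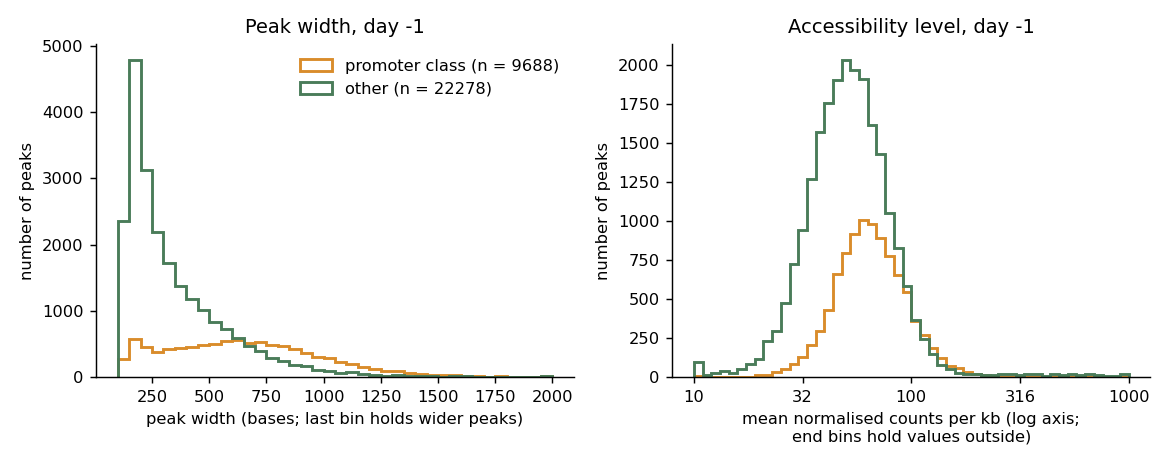
Width in bases (left) and mean normalised counts per kb over 8 libraries (right, log axis) of the 9688 promoter-class and 22278 other nuclear peaks of day -1. Other peaks pile up under 300 bases, while promoter-class peaks spread around a median of 625 bases and are shifted to higher levels.

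Other peaks lay mostly in and around genes. Of them, 15.3% lay up to 1 kb from the start or the end of a gene, inside or outside it. A further 51.8% were inside a gene, 15.2% up to 10 kb from a gene and 17.3% farther away. The gene with the most other peaks inside its span was Stard13, with 26. Sox5, a transcription factor of cartilage and other lineages, had 24. Tns1, which encodes tensin, a link between integrins and actin, and Trio had 23 each. Cpm, Foxp1, Itpr1, Cacna1c and Sh3pxd2a had 20 each, and the peaks of Cpm fell in a span of 57.9 kb, against 610 kb for Cacna1c. For Stard13, Cpm, Itpr1 and Sh3pxd2a, and for 16 of the peaks in Tns1, the peaks lay in windows of high count density described further on.

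Open gene starts were mostly CpG-rich. Of 21263 protein-coding starts in the RefSeq table, 41.6% lay under a peak, against 9.62% of 11588 starts of long non-coding RNA genes. The observed to expected CpG ratio of the 250 bases before a start divided them: at a ratio of at least 0.6, 73.0% of 9509 starts were covered, between 0.3 and 0.6 it was 32.6% of 4716, and under 0.3 it was 5.06% of 7038. At covered starts the peak centre had a median offset of 10 bases in the direction of the gene, and 79.0% were within 200 bases. Only starts under a peak were measured, so their closeness to the centre is partly set by that choice. Counting a peak within 1 kb rather than over the start gave 48.9% of protein-coding starts.

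**Figure D2:**
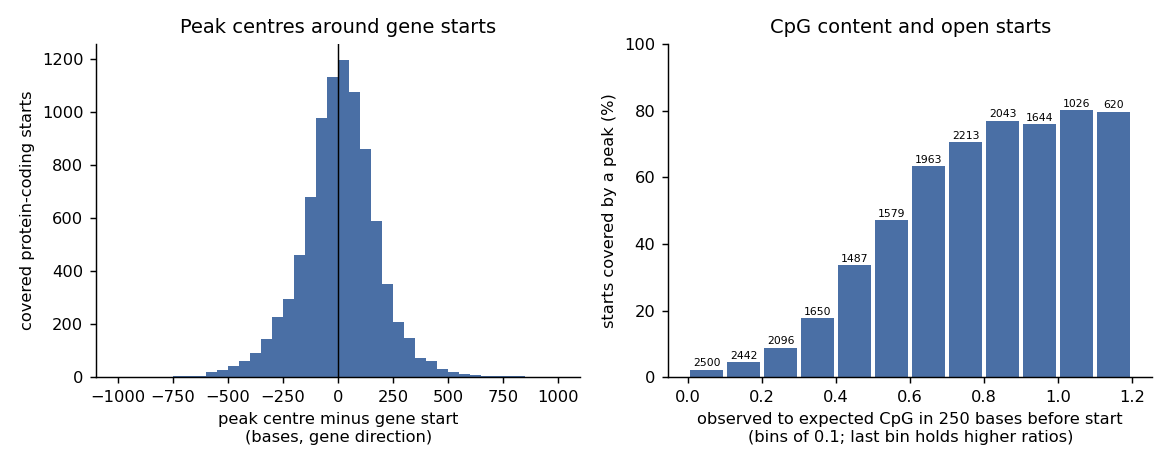
Left, number of covered protein-coding gene starts by distance in bases from the start to the centre of the peak over it, in bins of 50 bases. Right, percent of protein-coding starts under a day -1 peak by CpG ratio of the preceding 250 bases, with the number of starts above each bar; coverage runs from 2.28% in the lowest bin to about 80% in the top bins.

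Motif letters also differed between covered and uncovered starts. The GC box was in 66.6% of covered protein-coding starts and 25.6% of uncovered ones, against 42.6% of all of them. The ETS core CCGGAA was in 26.2% and 7.07%, and in 12.03% of all starts in the table with long non-coding RNA genes included. The TATA box went the other way, at 4.79% of covered and 16.5% of uncovered starts (11.6% of all). Within the CpG-rich class alone the GC box was in 71.8% of covered and 63.5% of uncovered starts, the ETS core in 29.0% and 16.2%, and the CCAAT box in 37.7% and 26.1%. All motifs were searched on both strands.

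Starts with higher levels more often held CCAAT and GC boxes. Covered starts were put in 5 equal classes by counts per kb. From the lowest to the highest class, the share with a CCAAT box went through 31.2%, 34.3%, 38.1%, 40.0% and 49.3%. For the GC box it went from 58.0% to 74.1%, while the ETS core stayed between 24.9% and 27.3%. The step in CCAAT was as large among CpG-rich covered starts, from 29.1% to 49.5%, and outside windows of high count density, from 31.1% to 49.4%. Base composition and peak width rose too. Median GC content was 59.6% in the lowest and 63.6% in the highest class, and median width 578 and 853 bases. Their part in the motif shares was not tested. None of these shares was tested. Osbp, with 5 CCAAT boxes and 3 GC boxes in the sequence shown above, had 276 ± 34.4 counts per kb, and Sp4, with 4 GC boxes and 1 CCAAT box, had 317 ± 27.8 (SD, n = 8 libraries).

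The 356 CpG-poor covered starts belonged to 333 genes and had a median level of 61.4 counts per kb, close to the 67.8 of all covered starts. The AP-1 letters were in 14.3% of them, against 10.1% of CpG-poor starts without a peak and 3.71% of all covered starts. Emp1 had 123 counts per kb at its start and carried 2 AP-1 matches. S100a4 had 101 ± 35.1 (SD, n = 8), with 119, 104, 86.1 and 79.9 in the Kdm5c siRNA libraries and 122, 103, 35.7 and 155 in the scramble libraries, and carried a TATA box 25 bases before the start. Other CpG-poor open starts with a level above 100 included Nrip1, a corepressor of nuclear receptors, at 115, Lipa, the lysosomal acid lipase, at 119, and Creb5 at 102. The start of Adipoq, with no CpG in the 250 bases and 3 CCAAT boxes, was 9586 bases from the nearest peak centre. A CpG-rich start was not always open: 2567 of 9509 protein-coding ones had no peak, among them that of Dazl, whose ratio of 0.710 lay above the limit.

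Most, but not all, markers of the labelled cell type had a promoter-class peak. Of 19 preadipocyte or fibroblast markers, 13 had a promoter-class peak: Cav1, a caveolar protein, at 114 counts per kb, then S100a4, Col1a2 at 97.7, Twist1 at 90.8, Col1a1 at 80.3, Pdgfrb at 70.9, Zfp423, Vim, Ebf1, Twist2, Prrx1, Col3a1 and Dlk1 at 48.4. The defining markers Pdgfra, Thy1, Cd34, Ly6a, Fn1 and Ebf2 had none. Of the distinct peaks over protein-coding starts, 87.1% were promoter class. Lack of a promoter-class peak thus does not show that a promoter was closed. Of 9 mature adipocyte markers only Pnpla2, a lipase also found outside fat cells, had one, at 69.4, while Adipoq, Plin1, Fabp4, Cidec, Lep, Retn, Lipe and Ucp1 had none. Of 26 markers of muscle, immune, endothelial, epithelial and neural cells, only the endothelial receptor gene Kdr had a promoter-class peak, a narrow one with few counts. The summed level of the preadipocyte markers was 893 to 1011 counts per kb in the Kdm5c siRNA libraries and 924 to 960 in the scramble libraries, which overlap.

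At Kdr counts were lower in every Kdm5c siRNA library. Its peak of 138 bases held 4.01, 6.97, 1.01 and 9.39 normalised counts with Kdm5c siRNA and 12.5, 13.02, 9.79 and 9.63 with scramble. The arms do not overlap, which was also so at 3.24% of all tested peaks (1.7% in the lower direction). The highest Kdm5c siRNA value and the lowest scramble value lie close together. At this depth the peak did not pass the filter on low counts and was not tested.

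The 13 gene lists differed in how many members had a promoter-class peak, which is not the same as how many had an open promoter. Across protein-coding genes of the gene table, 38.7% had a promoter-class peak. Of the lists, mitotic genes had 17 of 20, S phase and licensing genes 20 of 26, H3K4 demethylases and their partners 16 of 21 and interferon genes 19 of 25. Adipogenic transcription factors had 18 of 28, mature adipocyte and lipid genes 12 of 25, and germline genes, many of them reported targets of KDM5C-containing repressors, 3 of 21. The germline genes with a peak were Tdrkh at 72.8, Tuba3a at 41.2 and Stk31 at 23.4 counts per kb, the last of which is at percentile 0.661 of the promoter class.

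S phase and growth response promoters were the most accessible of these groups. The median level of S phase and licensing genes was 86.4 counts per kb, led by Gins2, part of the replicative helicase, at 185 ± 25.4, Mcm3 at 112 and Mcm2 at 110. Growth response and AP-1 genes had a median of 102, led after Mdm2 by cyclin D2, Ccnd2, at 142 and the AP-1 subunit Fosl2 at 132 ± 10.5. Mitotic genes had a median of only 56.9, with Mad2l1, of the spindle checkpoint, at 276 ± 40.1 as the exception. Of the adipogenic factors Cebpb, an early factor, had 99.0, Cebpa 63.3 and Pparg, the regulator of fat cell formation, 53.7 counts per kb. Pparg thus lay at percentile 30.6 of promoter-class peaks 1 day before day 0, and all errors here are SD over 8 libraries.

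The highest levels of the day were not at ordinary promoters. Counts were piled up in 206 windows of 500 kb whose density exceeded 4 times that of the median window. These windows held 5022 peaks and 31.1% ± 1.22 of nuclear counts (SD, n = 8). A pair of peaks on chromosome 17, 17:39843039-39848750, over Rn18s-rs5 and the entry AY036118 of ribosomal RNA sequence, took 3.83% ± 0.453 of nuclear counts. Another 3 peaks on chromosome 2, 2:98662239-98667319, more than 10 kb from any gene, took 3.44% ± 0.386. Next by level among other peaks came single peaks inside Chl1 at 6470, Gm33838 at 6219, Cdk8 at 2955 and Gm36876 at 2469 counts per kb, and one far from any gene, with Gm8797 the nearest, at 2302. In each of these, replicate 4 of both arms was the lowest library of its arm, for example 5824 and 4773 counts per kb at Chl1 against 6496 to 7477 in the remaining libraries.

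A single stretch of chromosome 10 carried as much. From 10:117014055 to 10:117988069 it held 156 peaks, at 11 genes named by the authors, with a median of 589 counts per kb, or 10.7 times the median of all nuclear peaks, and 3.83% ± 0.278 of nuclear counts. The promoter-class peak of Mdm2 reached 3139 ± 106 counts per kb and that of Slc35e3, a member of a sugar transporter family, 1761 ± 86.3. Cpm, a membrane carboxypeptidase gene, had 739, and Lyz2, the lysozyme gene of macrophages, 379 and 417 at its peaks. At the borders the level fell to the ordinary range, with Cct2 at 84.0, Frs2 at 58.2, Yeats4 at 68.2 and Rap1b at 72.0. Copy number of this stretch was not measured here, and its part in these levels was not tested.

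Outside those windows the most accessible promoter-class peak was that of M6pr, the mannose 6-phosphate receptor gene, at 334 ± 30.4 counts per kb. It was followed by Sp4, Mad2l1, Osbp, Mon1b, a vesicle trafficking gene, at 264 ± 19.6, and Rpia, of the pentose phosphate pathway, at 264 ± 30.2. The windows of M6pr, Sp4, Mad2l1, Osbp and Rpia had 3.15, 3.34, 3.69, 3.38 and 3.67 times the median density, under the limit of 4. That of Mon1b had 2.35 times. Khsrp, an RNA-binding protein gene in a window of 5.61 times the median density, had 327 ± 29.9. The set outside those windows was chosen after the data were seen. M6pr ran from 290 to 342 with Kdm5c siRNA and from 303 to 371 with scramble, while over all 8 libraries Osbp ran from 218 to 323 and Mad2l1 from 233 to 359.

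Promoter accessibility also differed between chromosomes, in all 8 libraries. Relative to all promoter-class peaks, the median level was 1.28 ± 0.0328 on chromosome 6, 1.25 ± 0.0367 on chromosome 5, 1.19 ± 0.0248 on chromosome 19 and 1.14 ± 0.0286 on chromosome 8. It was 0.854 ± 0.0312 on chromosome 13, 0.857 ± 0.0200 on chromosome 11, 0.863 ± 0.0302 on the X and 0.882 ± 0.0198 on chromosome 9 (SD, n = 8). In every library the first 4 chromosomes lay above 1 and the last 4 below it. Chromosomes with high promoters also had more other peaks called for each promoter-class peak, 4.62 on chromosome 6 and 3.59 on chromosome 5 against 1.26 on chromosome 11 and 1.34 on the X. Over the 19 autosomes the ranks of these measures went together, with a Spearman rank correlation of 0.828, given as a description since both come from the same libraries and peak calling. Copy number differences between chromosomes were not measured here, and their part was not tested.

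**Figure D3:**
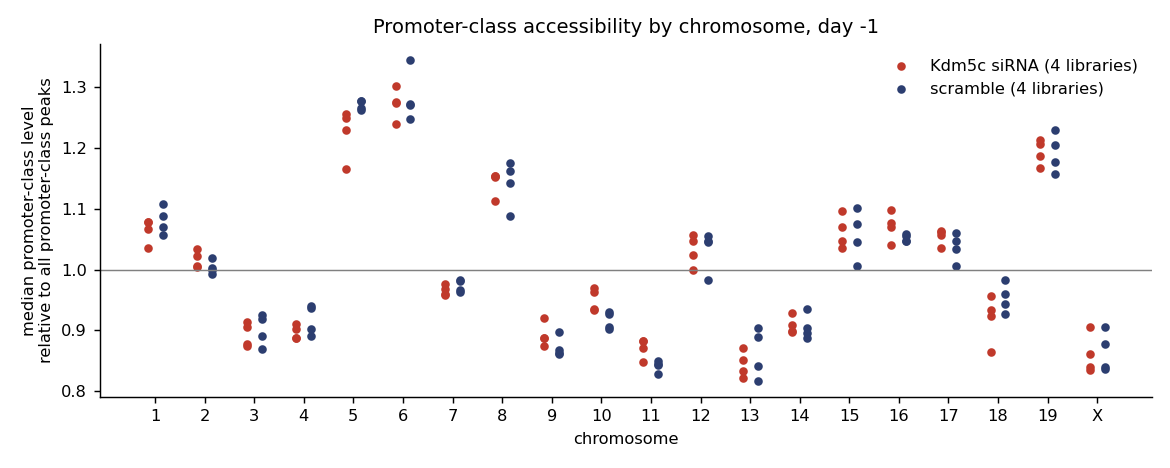
Median level of promoter-class peaks on each chromosome relative to the median of all promoter-class peaks, 1 point per library, with Kdm5c siRNA in red and scramble in blue. Among others, chromosomes 5, 6, 8 and 19 lie above 1 and chromosomes 9, 11, 13 and X below it in every library.

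The day -1 peak set overlapped the sets of the neighbouring days. Of its peaks, 80.2% met a day -2 peak and 68.9% a day 0 peak, and 16.2% met neither. The last group was 2.99% of promoter-class and 22.0% of other peaks, and was narrow and low, with a median of 182 bases and 37.1 counts per kb. From the other side, only 29.9% of the 84016 day -2 peaks met a day -1 peak.

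No difference between the arms passed the test on any of 8 measures of whole libraries. Nuclear counts, the ratio of mitochondrial to nuclear counts, the shares of nuclear counts in promoter-class peaks, in the 1000 most abundant peaks, in wide peaks, in X-chromosome peaks and in windows of high density, and the share of empty peaks gave two-sided exact permutation p-values from 0.171 to 0.914, and each adjusted value was 0.914. The smallest p that 4 against 4 libraries allow is 0.0286. Chromosome X peaks, the chromosome of Kdm5c, held 1.63% ± 0.0674 of nuclear counts with Kdm5c siRNA and 1.64% ± 0.0843 with scramble (SD, n = 4 each). The log2 mitochondrial to nuclear ratio was lower on average with Kdm5c siRNA, at 2.90, 3.65, 3.46 and 2.82 against 3.33, 3.57, 3.79 and 3.70 with scramble, and these overlap.

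No nuclear peak passed the test of Kdm5c siRNA against scramble on day -1. Of 23258 peaks that passed the filter on low counts, edgeR's quasi-likelihood test called 0 at an adjusted p under 0.05 (0% of peaks tested), and the smallest adjusted p was 0.287. DESeq2 also called 0, with 867 (3.73%) at an unadjusted p under 0.05. By limma-voom 2 were called (0.0086%), and 1258 (5.41%) were at that level. At an unadjusted edgeR p under 0.05 there were 1251 peaks, 5.38% of those tested, of which 592 (2.55%) were higher and 659 (2.83%) lower. The arms did not overlap at 753 peaks, 3.24% of those tested, 358 of them higher (1.54%) and 395 lower (1.7%). These shares are the background for every count that follows, and a share near them is no result about the peaks counted.

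**Figure D4:**
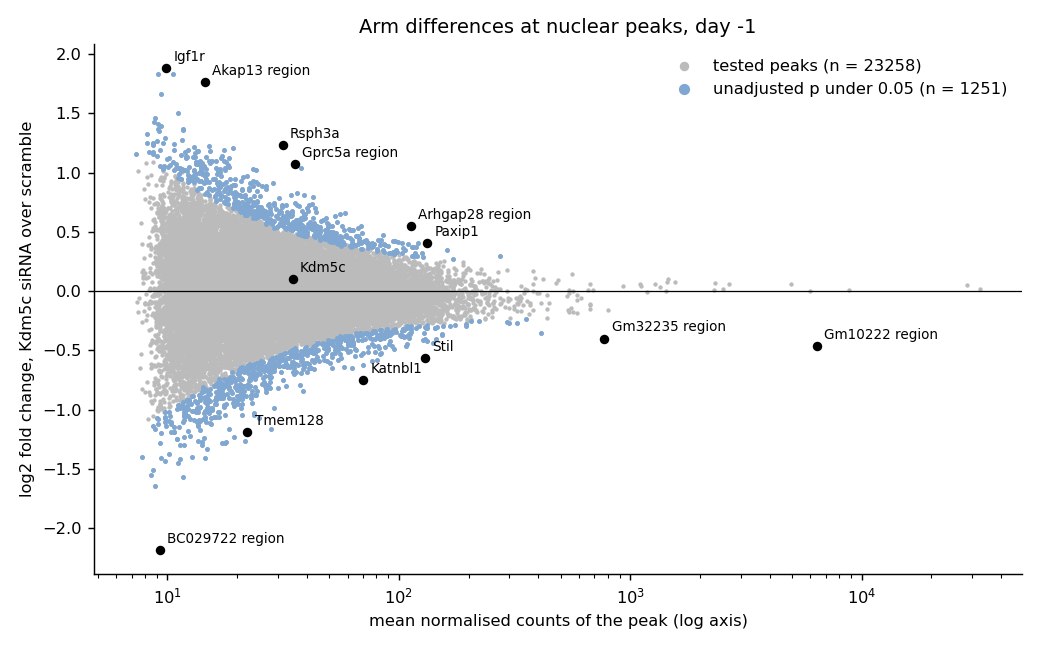
Log2 fold change of Kdm5c siRNA over scramble against mean normalised counts (log axis) for the 23258 tested nuclear peaks of day -1, with the 1251 at an unadjusted p under 0.05 in blue and some peaks named in the text in black. Differences narrow as counts rise, and the Gm10222 and Gm32235 regions lie below 0 at high counts.

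Shares in most classes of region lay near that background. At an unadjusted p under 0.05 were 472 of 8833 promoter-class peaks (5.34%) and 779 of 14425 other peaks (5.40%), with median fold changes of -0.0010 and -0.0034. The arms did not overlap at 296 promoter-class peaks (3.35%). Among peaks of at least 1 kb the count was 106 of 1955 (5.42%), and among X-chromosome peaks 24 of 524 (4.58%). Precision grew with counts: the median standard error was 0.45 in the lowest and 0.18 in the highest of 4 equal classes of tested peaks by counts. A fold change of 1 or more in size was found at 218 peaks, 0.937% of those tested, with a median of only 12.04 normalised counts. Peaks with so few counts can pass the filter through 1 arm alone, so large differences among them are partly set by it.

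In the chromosome 10 stretch, as in other regions with many counts, more peaks lay below 0 than above. Of 151 tested peaks, 108 were below 0 and 43 above, with a median fold change of -0.089, and all 16 at an unadjusted p under 0.05 (10.6%) were lower, but none was called. In all windows of high count density 75 peaks were higher and 157 lower at that level, with 1756 above 0 and 2161 below, and in the highest of 4 equal classes by counts 142 were higher and 204 lower, with 2678 above 0 and 3137 below. The stretch lies in such windows, and its difference from them was not tested. Its 14 promoter-class peaks had a median of 0.00097, with Mdm2 at 0.06 (SE 0.10) and Slc35e3 at 0.01 (SE 0.11), while its 137 tested other peaks had -0.10. The peak with the smallest p there, 10:117547044-117547948, lies in the Gm32235 region. Normalised counts were 656, 755, 686 and 568 with Kdm5c siRNA and 913, 802, 935 and 866 with scramble. All 4 Kdm5c siRNA libraries were below all scramble libraries, a log2 difference of -0.40 (SE 0.11) at an edgeR adjusted p of 0.711. With limma-voom its adjusted p was 0.00864, and with replicate number as a block edgeR gave 0.0498. The stretch took 3.82%, 4.04%, 3.80% and 3.37% of nuclear counts with Kdm5c siRNA and 4.12%, 3.75%, 4.19% and 3.57% with scramble, which overlap. The split of signs among peaks that share 1 stretch was not tested.

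The targeted gene itself had a single promoter-class peak, X:152232720-152233227, that ends at the gene start shown above. It held 28.0, 58.1, 20.2 and 38.3 normalised counts with Kdm5c siRNA and 36.4, 31.6, 33.6 and 32.1 with scramble. The scramble libraries were alike and lay inside the range of the Kdm5c siRNA libraries. This gave a log2 difference of 0.10 with a standard error of 0.25 and an edgeR adjusted p of 0.985. Without Kdm5c siRNA replicate 2 it was -0.19. Promoter accessibility is no measure of mRNA left after siRNA treatment, and transcripts were not analysed here. Of the other KDM5 genes, Kdm5a had 0.04 and Kdm5b 0.59, from 12.02, 16.3, 29.3 and 29.6 against 16.3, 19.5, 12.6 and 9.63 normalised counts. The Kdm5b arms overlap, and its edgeR adjusted p was 0.925.

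The promoter-class peaks with the smallest p in each direction are given next as a description, since none passed. The largest difference by rank was higher. Rsph3a, a gene of the radial spokes of motile cilia, had 66.1, 39.5, 28.3 and 44.8 normalised counts with Kdm5c siRNA and 22.0, 28.8, 9.79 and 12.8 with scramble at 17:7945469-7946231. The arms touch, since Kdm5c siRNA replicate 3 lay just under scramble replicate 2. These gave a log2 difference of 1.23 (SE 0.28) and an edgeR adjusted p of 0.287. It was called on 2 other settings, at 1.65 when all counts, mitochondrial included, set the library size (edgeR adjusted p = 0.043) and at 1.29 with replicate number as a block (edgeR adjusted p = 0.0498). Rsph3b is a close copy of this gene, and no source used here says how reads that fit both were counted.

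The next promoter-class peaks on the higher side had few counts or a smaller fold change. Igf1r, the receptor for insulin-like growth factor 1, had 12.02, 25.6, 12.1 and 12.3 against 2.88, 0.930, 5.60 and 7.49 at a peak of 133 bases, a fold change of 1.88 (SE 0.55). Hist2h4, a histone H4 gene, had 44.1, 29.0, 39.4 and 36.8 against 15.3, 24.2, 18.2 and 21.4, or 0.91 (SE 0.27). Med30, a subunit of the Mediator complex, had 47.1, 67.4, 53.6 and 44.8 against 33.6, 30.7, 22.4 and 38.5, or 0.73 (SE 0.23). In these 3 genes every Kdm5c siRNA library was above every scramble library, and their edgeR adjusted p was 0.711, 0.733 and 0.841. At Igf1r the Kdm5c siRNA libraries alone held enough counts for the peak to pass the filter on low counts. Its separate arms and its fold change are thus partly set by that filter. Histone H4 genes are near-identical copies, so the Hist2h4 value is uncertain.

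The rest of the 12 on the higher side had an edgeR adjusted p of 0.87. They were Alg8, of protein glycosylation, at 1.19, Zfp472 at 1.14, Ttc30b, of ciliary transport, at 1.10, Vmn1r40, a vomeronasal receptor gene, at 0.91, and Pde10a, a phosphodiesterase, and Scamp2, of vesicle membranes, both at 0.89. Lrrn4cl had 0.86 and Ckap4, of the endoplasmic reticulum, 0.72. Of all 12, the arms did not overlap at Igf1r, Hist2h4, Med30, Alg8, Zfp472, Lrrn4cl, Ttc30b and Vmn1r40.

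On the lower side the differences were smaller and the counts higher. Katnbl1, related to the katanins that sever microtubules, had 46.1, 60.4, 58.7 and 44.8 normalised counts with Kdm5c siRNA and 69.98, 101, 85.4 and 94.2 with scramble at 2:112378907-112379719. Every Kdm5c siRNA library was below every scramble library. The log2 difference was -0.75 (SE 0.18), at an edgeR adjusted p of 0.287. This peak also meets the gene Emc4, of the membrane protein insertion complex, so it may not be assigned to either gene alone.

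Stil, which is needed for centriole duplication, had 118, 130, 88.0 and 85.2 with Kdm5c siRNA and 133, 174, 164 and 149 with scramble at 4:114999628-115000747. The arms do not overlap, but Kdm5c siRNA replicate 2 and scramble replicate 1 lie close together. The log2 difference was -0.57 (SE 0.15), at an edgeR adjusted p of 0.462. Its start, printed above, has 3 CCAAT boxes and 1 GC box in 250 bases.

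Btbd19 was the tightest of this group, with 15.02, 19.7, 14.2 and 15.2 against 32.6, 34.4, 35.0 and 32.1, a fold change of -1.07 (SE 0.30). Tmem128 had 10.02, 19.7, 12.1 and 12.3 against 24.9, 37.2, 36.4 and 24.6, or -1.19 (SE 0.32). Deptor, which encodes an inhibitor of the mTOR kinase, had 17.03, 37.2, 22.3 and 34.0 against 56.6, 53.0, 51.8 and 37.5, or -0.84 (SE 0.24). Their edgeR adjusted p was 0.711, 0.707 and 0.711, and none has overlapping arms, although at Deptor the gap is under 1 count.

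The remaining 7 on the lower side had an edgeR adjusted p of 0.711 to 0.87. Psmc4, an ATPase subunit of the proteasome, had -1.05, Sertad3 -0.65, Ppp3cb, a catalytic subunit of calcineurin, -0.64, and Snapin, of vesicle fusion, -0.61. Zscan25 had -0.58, Mtch2, of the outer mitochondrial membrane, -0.55, and Fzd7, a Wnt receptor, -0.53. At Fzd7 the counts were 60.1, 58.1, 88.0 and 65.7 against 105, 103, 91.0 and 92.1. Among the 12, the arms overlapped only at Sertad3.

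**Figure D5:**
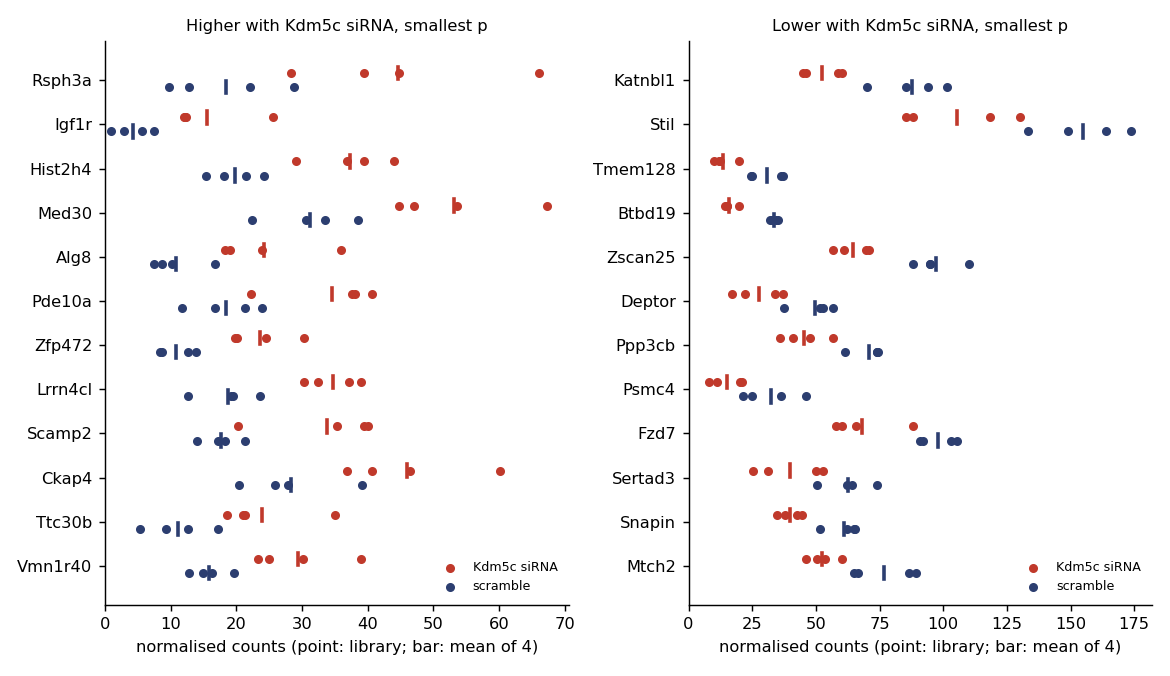
Normalised counts of the 12 promoter-class peaks with the smallest p on each side, 1 point per library and a bar at the mean of 4, with Kdm5c siRNA in red and scramble in blue. Peaks were picked by p, so the separation of arms is a result of that choice, and none had an edgeR adjusted p under 0.05.

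Among other peaks, those with the smallest p were chosen after their values were seen. A peak in the Gm36561 region, 1:189054817-189055483, had 47.1, 43.0, 53.6 and 58.5 against 34.5, 23.2, 28.0 and 12.8, or 1.04 (SE 0.25, edgeR adjusted p = 0.287). A peak at Gprc5a, a receptor gene induced by retinoic acid, had 60.1, 59.2, 34.4 and 41.9 against 27.8, 29.7, 13.99 and 18.2, or 1.07 (SE 0.25, edgeR adjusted p = 0.287). The arms do not overlap at either. A peak of 907 bases inside Arhgap28 had 134, 132, 131 and 135 with Kdm5c siRNA and 79.6, 103, 93.8 and 88.8 with scramble. Its Kdm5c siRNA libraries were nearly equal, and the fold change was 0.55 (SE 0.15, edgeR adjusted p = 0.624).

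On the lower side, a peak inside Frmd4a, a gene of epithelial polarity, had 22.0, 24.4, 9.10 and 13.7 against 24.9, 34.4, 46.2 and 49.2, or -1.16 (SE 0.29, edgeR adjusted p = 0.409). A peak inside St3gal1, a sialyltransferase gene, had 42.1, 58.1, 45.5 and 73.7 against 95.9, 76.2, 81.2 and 89.9, or -0.63 (SE 0.18, edgeR adjusted p = 0.711). The arms do not overlap at either, but at Frmd4a the gap is under 1 count. Further peaks of this kind were those at Akap13 with 1.76, Hnrnpul2 with 1.83, BC029722 with -2.19, Gip with -1.26 and Gm31980 with -1.23, all under 50 counts in every library.

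The widest nuclear peak of the day, 1:24611608-24616138 at the pseudogene Gm10222, was lower on average with Kdm5c siRNA. It held 4321, 7345, 5536 and 4249 normalised counts with Kdm5c siRNA and 6098, 6690, 8573 and 8199 with scramble. The arms overlap, since Kdm5c siRNA replicate 2 lay above scramble replicates 1 and 2. The log2 difference was -0.46 (SE 0.11), at an edgeR adjusted p of 0.409. In both arms the order of the libraries was the same as in their mitochondrial to nuclear ratios given above, from replicate 4 through 1 and 3 to 2 with Kdm5c siRNA and from 1 through 2 and 4 to 3 with scramble. This region of chromosome 1 is known to be a nuclear copy of mitochondrial DNA, and the part of mitochondrial reads in its counts was not tested. The peak was also called by limma-voom (adjusted p = 0.00011), by edgeR with replicate number as a block (adjusted p = 1.11e-08) and by edgeR with no low-count filter (adjusted p = 0.032). The peak was called without Kdm5c siRNA replicate 2, at -0.65 (adjusted p = 0.0030), and without scramble replicate 1, at -0.55 (adjusted p = 0.023), by edgeR.

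The gene lists gave no called member. Over the 13 lists, 189 of 296 genes had a promoter-class peak, 181 of them passed the filter, and edgeR called 0. At an unadjusted p under 0.05 were 12 (6.63%), 9 higher and 3 lower, against 447 of 8507 genes with a tested promoter-class peak (5.25%, 219 higher and 228 lower). By DESeq2 there were 0 called and 7 at that level. Each gene is represented by its promoter-class peak with the most counts.

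Enzymes of histone H3 lysine 4 are the group nearest to the targeted gene. Of the demethylases and KDM5 partners, 16 of 16 measured members were tested, with 10 above 0 and 6 below, a median of 0.10, and 0 at an unadjusted p under 0.05. Of the methyltransferase complexes 13 of 13 were tested, with a median of -0.06. Paxip1, a subunit of the KMT2C and KMT2D complexes, had 196, 128, 107 and 171 normalised counts with Kdm5c siRNA and 91.1, 137, 116 and 115 with scramble. The arms overlap, and its fold change was 0.40 (SE 0.15, edgeR adjusted p = 0.870). X-linked genes that escape inactivation had a median of -0.09 over 6 tested members, among them Kdm6a at -0.20 and Ddx3x at -0.24, and of 0.04 without scramble replicate 2.

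No adipogenic or lipid gene was called. The 17 tested adipogenic factors had a median of 0.03, against -0.00071 for all promoter-class genes, with 9 above 0 and 8 below. Cebpb had 57.1, 118, 66.8 and 71.5 against 126, 63.2, 115 and 115, and the insulin receptor gene Insr 73.1, 63.9, 38.4 and 55.6 against 37.4, 55.8, 29.4 and 47.1. The arms overlap in both genes, and the fold changes were -0.42 (SE 0.17) and 0.42 (SE 0.21), with edgeR adjusted p of 0.870 and 0.916. Pparg had -0.19 and Cebpa 0.20. The 12 lipid genes had a median of -0.12, with 4 above 0 and 8 below, among them Gpam, which starts triglyceride synthesis, at -0.55 (SE 0.25) and Dgat1, which ends it, at 0.42 (SE 0.21).

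Of 15 tested preadipocyte and anti-adipogenic genes, 3 (20%) were at an unadjusted p under 0.05, 2 higher and 1 lower. The share over all promoter-class genes was 5.25%. Among the gene lists this share was the highest, while several lists had no such gene, and its difference from 5.25% was not tested. The list median was 0.09. It was -0.03 if scramble replicate 2 was left out and -0.07 if Kdm5c siRNA replicate 1 was. Smad3, which carries the TGF-beta signal, had 39.1, 24.4, 39.4 and 34.0 against 43.1, 49.3, 54.6 and 50.3, or -0.51 (SE 0.22, edgeR adjusted p = 0.878). Wwtr1, the YAP-related coactivator TAZ, had 0.46 (SE 0.20), and Foxo1, a repressor of fat cell formation, 0.56 (SE 0.27). Of these only Smad3 has arms that do not overlap. On days -2 and 0 Foxo1 had -0.14 and -0.54 and Smad3 0.02 and -0.15, while the values of Wwtr1 on those days are not given here.

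Of 13 growth response genes 2 (15.4%) were at an unadjusted p under 0.05, and of 20 S phase genes 1 (5%), all higher. Of 17 mitotic genes 0 were, and the share over all promoter-class genes was 5.25%. Myc had 53.1, 45.3, 47.5 and 40.5 against 37.4, 28.8, 40.6 and 16.1, or 0.61 (SE 0.24). Ccnd2 had 42.1, 60.4, 58.7 and 54.9 against 30.7, 37.2, 37.8 and 42.8, or 0.54 (SE 0.21). Mcm6, of the replicative helicase, had 101, 106, 136 and 112 against 71.9, 104, 99.3 and 67.4, or 0.41 (SE 0.16). In each the arms overlap, though only slightly, and the edgeR adjusted p was 0.870 for all 3. The medians of the lists were 0.06 for 13 growth response genes, -0.02 for 20 S phase genes and 0.02 for 17 mitotic genes.

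The remaining lists also had no called member. The 20 tested cytosolic ribosomal protein genes had a median of -0.05, with Rpl10a at 0.41 (SE 0.20), the 19 interferon genes 0.01 and the 14 matrix genes 0.12, with 9 above 0 and 5 below, of which Col3a1 had 0.48 and Col1a1 -0.33. Of the 3 germline genes with a peak, only Tdrkh passed the filter, at -0.01. The sign of most list medians changed when single libraries were left out. Those of the demethylases (0.056 to 0.13), growth response genes (0.055 to 0.092), lipid genes (-0.13 to -0.014) and matrix genes (0.023 to 0.16) did not, but the lipid median shrank to -0.014 without Kdm5c siRNA replicate 1, and the matrix median to 0.026 without that library and 0.023 without scramble replicate 4.

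The same positions were looked up in the libraries of the other days, which share no sample with day -1. Day 0 had only 7 libraries, with Kdm5c siRNA the smaller arm. Of the 12 promoter-class peaks on the higher side, 11 had a tested match on each of days -2 and 0, with median fold changes of 0.10 and 0.13, against 0.91 on day -1. Rsph3a had 0.10 (SE 0.20) and -0.02 (SE 0.24), and Hist2h4 -0.10 and 0.06. Of the 12 on the lower side, 11 and 12 had one, with medians of -0.16 and -0.08, against -0.64 and -0.65 for the same peaks on day -1. On those days 4.64% and 6.11% of all tested peaks were at an unadjusted p under 0.05. On day -2 Katnbl1 stood at 0.00, and on day 0 at -0.40 (SE 0.17), with an edgeR adjusted p of 0.749. Mtch2 stood at -0.41 (SE 0.16) and -0.19. On the higher side 8 of 11 matched peaks kept the day -1 sign on each day. On the lower side 8 of 11 did on day -2 and 8 of 12 on day 0. The share of kept signs over all matched peaks is not given here, so these counts have no background. Peaks picked for a small p on 1 day are larger on that day by the picking, and differences between days were not tested.

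The Gm10222 peak is the one with a called value on other days. For day -2 the edgeR fit gave it -0.67 with a standard error of 0.12 and an adjusted p of 0.0026. For day 0 these were -0.51, 0.10 and 0.016. It was the 1 called peak of 44194 on day -2 (0.00226%) and 1 of the 2 called of 26656 on day 0 (0.0075%).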

How the data were processed

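ATAC-seq of 3T3-L1 cells, 4 Kdm5c siRNA and 4 scramble libraries, was analysed from the deposited raw table of whole-number counts per peak. The authors also deposited normalised signal for peaks with a gene name, which equals the raw counts divided by 1 constant per library (tolerance 1e-08) and served only for the names. Tools named by the submitters' processing notes are HTSeq 0.9.1, MACS2 2.1.1, Bowtie2 2.2.9, DESeq2 1.24.0 and cutadapt 2.3, with the build GRCm38. No source used here gives their settings, whether samples were pooled to call peaks, how duplicate or multiply mapped reads and the transposase shift were treated, or whether coordinates start at 0 or 1.

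Mitochondrial peaks were removed. The test was edgeR 4.0.16 (R 4.3.3): TMM, filterByExpr, quasi-likelihood F test, no covariate, Benjamini-Hochberg over 23258 peaks, called under 0.05. TMM assumes that most nuclear peaks do not change. Normalised counts are counts over relative effective library size, and standard errors derive from the F statistic. Alternatives used DESeq2 1.42.0, limma 3.58.1 and others listed in the closing section. The scripts were tested on simulated data with changes only in peaks of high counts, so recovery at a typical peak was not tested. Library measures used two-sided exact permutation of 70 regroupings (Python 3.11.15, scipy 1.17.1). Peaks of other days, each fitted alone, were matched 1 to 1 by 50% reciprocal overlap with bedtools 2.31.1. Starts and sequences come from RefSeq tables of GRCm38.p6, which held 6941 of the 8994 named genes and are not complete.

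Genes named were Kdm5c, the 12 promoter-class peaks of smallest p in each direction without clone names, list members under an unadjusted 0.05, the 15 promoter-class and 10 other peaks with the highest counts per kb, and markers. Members and lists were chosen with earlier results of these data known.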

Additional observations from a re-analysis of the deposited data

Results flagged for a closer look

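A library far from the other 3 of its arm was looked for in 114 groups of 4, over the named peaks and 8 library measures. It was found in 8, and chance flags about 1 in 20 groups. At peaks, Kdm5c siRNA replicate 2 had 25.6 normalised counts at Igf1r against 12.02 to 12.3 in its arm, Kdm5c siRNA replicate 3 had 22.3 at Pde10a against 37.6 to 40.7, and Kdm5c siRNA replicate 1 had 35.1 at Ttc30b against 18.6 to 21.2. Scramble replicate 3 had 61.6 at Ppp3cb against 73.8 to 74.4, and scramble replicate 4 had 27.8 at Gpam against 46.2 to 49.8.

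The remaining 3 concern Kdm5c siRNA replicate 4. It had 24.0% of nuclear counts in the 1000 most abundant peaks against 26.0% to 26.1% in its arm, 29.1% in windows of high count density against 31.4% to 31.6%, and 1.74% in X-chromosome peaks against 1.59% to 1.61%. In scramble, replicate 4 had 24.7%, 29.5% and 1.75% on these measures, the lowest, lowest and highest of that arm. No explanation was tested.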

How the results depend on the processing

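The count of 0 called peaks held with RLE size factors, total nuclear counts, loess offsets, mitochondrial peaks kept, peaks of median abundance or above, DESeq2 and without high-count windows. It was 1 with total counts including mitochondrial peaks (Rsph3a, 1.65, edgeR adjusted p = 0.043), 1 with no low-count filter (the Gm10222 peak, -0.46, edgeR adjusted p = 0.032) and 2 with limma-voom (the Gm10222 peak, -0.49, and the Gm32235 peak, -0.41), and 0 to 1 when single libraries were left out. With the replicate block it was 3 (Rsph3a 1.29, Gm32235 -0.41, Gm10222 -0.49). The deviations of same-numbered libraries correlated at -0.020 to 0.021. Only Kdm5c siRNA replicate 1 and scramble replicate 4 correlated best with their own number. At the low counts per peak here such correlations may stay near 0 in paired samples too, so they cannot decide whether the numbers pair the samples. Some measures did follow the number: replicate 4 was lowest in both arms for high-density windows, and the chromosome 17 window had the same replicate order in both. Others did so in part or not at all. In the chromosome 2 window and the chromosome 10 stretch replicate 4 was lowest in both arms, but the order of the rest differed. The replicate order of nuclear counts and of the mitochondrial to nuclear ratio also differed between arms. Total counts including mitochondrial peaks moved the median of promoter-class peaks to 0.382 and of other peaks to 0.380, with 3089 peaks higher and 12 lower at an unadjusted p under 0.05 against 592 and 659 as reported, a shift shared by all nuclear peaks. Leaving out single libraries gave medians of -0.0054 to 0.0080 and -0.017 to 0.0067. The Kdm5c peak turned to -0.0026 with limma-voom and ranged from -0.19 (without Kdm5c siRNA replicate 2) to 0.29 when single libraries were left out.

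Leaving out single libraries turned the sign of 5 arm differences, none called: from -0.18 to 0.67 percentage points for promoter-class peaks, -0.68 to 0.20 for the most abundant peaks, -0.13 to 0.35 for wide peaks, -0.037 to 0.033 for X-chromosome peaks and -0.92 to 0.27 for high-density windows. List medians ranged from -0.18 to 0.043 for X-linked escape genes and from -0.068 to 0.093 for preadipocyte genes. A peak within 1 kb covered 48.9% of protein-coding starts. On the given strand alone 42.8% of covered starts held a GC box and 23.5% a CCAAT box. At 781309 to 1446979 nuclear counts per library, a median standard error of 0.28 limits what could be called, and the 0 calls do not show that the arms are alike.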
